A study of Homo sapiens with 5 samples.

Results

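The HOX genes lie in 4 clusters, HOXA on chromosome 7 (27092993 to 27200091, hg38), HOXB on chromosome 17 (48528526 to 48728750), HOXC on chromosome 12 (53938831 to 54056030) and HOXD on chromosome 2 (176087487 to 176190907). The members were chosen by name from these clusters: 38 HOX genes, 10 in HOXA, 10 in HOXB, 9 in HOXC and 9 in HOXD, of 19974 protein-coding gene records on the 22 autosomes and the X chromosome. The choice used no measured value as a criterion, although earlier results of these data were known when it was made. The cells were HT1376, an established human bladder carcinoma line, given either the vehicle DMSO or the EZH2 inhibitor CPI-0209 at 250 nM, for 8 days in both arms. Chromatin immunoprecipitation and sequencing (ChIP-seq) was done with antibodies against EZH2 and against the histone mark H3K27me3, which gave 4 groups of 1 library each, beside 1 input library that was not analysed here. A 4 day treatment and an antibody to acetylated H3K27 also appear in the labels, but neither names a list used here. Each library is represented by called intervals without score or count, so the depth is unknown, no difference between the arms has a replicate check, and no test was made. The lists hold no expression values, so the cell line could not be checked against expressed markers.

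HOX genes encode homeodomain transcription factors that give cells their position along the head to tail axis, and the order of the genes in a cluster follows the order in which they are used along that axis. Low-numbered (anterior) genes act in the hindbrain and pharyngeal arches, and high-numbered (posterior) genes act in the trunk, limbs and urogenital tract. Polycomb repressive complex 2, whose catalytic subunit is EZH2, trimethylates lysine 27 of histone H3, and HOX clusters that are silent in a cell type are a classic place to find this mark in broad domains.

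Each list runs from chromosome 1 to X and then again from chromosome 1 to X, so it holds 2 passes over the genome. Within a pass no intervals overlap and the smallest gap is 800 bp, and overlapping intervals of a list always come from different passes. The sources used here do not say what a pass stands for, nor which pass of one list belongs with which pass of another. The passes differ in size. The first and the second pass cover 201.5 and 311.1 Mb for H3K27me3 in DMSO, and 113.4 and 15.1 Mb for H3K27me3 in CPI-0209. For EZH2 they cover 67.9 and 160.0 Mb in DMSO and 136.5 and 204.7 Mb in CPI-0209. A position is called covered below when it lies under either pass, and "under both passes" is the stricter reading. The part of depth or background in these calls was not tested.

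Promoter sequences of 4 HOX genes, chosen by hand as examples, are shown first. At the start of HOXA7 and of HOXA9 the CPI-0209 H3K27me3 list had both passes, and at the starts of HOXD8 and HOXD12 it had 1, while DMSO H3K27me3 had both passes at all 4 starts. The 250 bases before each start are given 5′ to 3′ on the gene's strand from RefSeq (GRCh38.p14), with every CG in capitals, for HOXA7 (chr7:27156676-27156925, minus strand), HOXA9 (chr7:27165538-27165787, minus strand), HOXD8 (chr2:176129455-176129704, plus strand) and HOXD12 (chr2:176099545-176099794, plus strand).
HOXA7: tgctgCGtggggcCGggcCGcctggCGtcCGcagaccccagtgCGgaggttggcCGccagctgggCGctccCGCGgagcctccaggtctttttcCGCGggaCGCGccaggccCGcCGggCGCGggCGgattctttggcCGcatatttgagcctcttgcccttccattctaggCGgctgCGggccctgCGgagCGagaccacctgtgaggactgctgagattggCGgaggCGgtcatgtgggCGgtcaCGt
HOXA9: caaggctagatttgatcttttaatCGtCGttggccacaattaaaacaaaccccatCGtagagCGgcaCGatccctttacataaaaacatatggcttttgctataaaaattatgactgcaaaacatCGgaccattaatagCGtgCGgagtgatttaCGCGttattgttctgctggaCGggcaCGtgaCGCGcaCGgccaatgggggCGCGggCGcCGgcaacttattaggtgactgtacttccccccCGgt
HOXD8: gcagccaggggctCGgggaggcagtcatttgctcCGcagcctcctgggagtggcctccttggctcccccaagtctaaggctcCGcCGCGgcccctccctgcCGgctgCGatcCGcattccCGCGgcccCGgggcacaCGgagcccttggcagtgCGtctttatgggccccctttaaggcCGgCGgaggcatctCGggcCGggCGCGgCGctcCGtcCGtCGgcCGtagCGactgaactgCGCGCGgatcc
HOXD12: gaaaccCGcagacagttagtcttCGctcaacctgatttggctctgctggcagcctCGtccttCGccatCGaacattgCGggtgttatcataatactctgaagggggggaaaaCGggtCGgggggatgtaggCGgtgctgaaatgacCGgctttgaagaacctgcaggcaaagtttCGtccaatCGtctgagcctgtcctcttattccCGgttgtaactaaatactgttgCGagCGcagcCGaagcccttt

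The letters CG read the same on both strands and occur 28 times in the HOXA7 stretch, 20 in HOXA9, 28 in HOXD8 and 16 in HOXD12, so both kinds of start include a CG-rich and a less CG-rich example. Over the 26 distinct HOX promoters in the RefSeq table (250 bases before to 50 after the start) the median was 22.5 CG, beside 21 over 22012 protein-coding promoters. The motif is common: 98.1% of all promoters of this length hold at least 1. The 12 HOX promoters whose start was under both CPI-0209 H3K27me3 passes had a median of 21.5 CG, and the 14 under 1 pass had 23.5. The counts overlap, from 0 to 31 in the former and from 4 to 44 in the latter.

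The clusters also hold microRNA genes, and their mature sequences are shown because these hairpins differed in the CPI-0209 H3K27me3 list (values below). The MIR196 hairpins and the MIR615 hairpin, which has another seed, were under both passes of it, and the MIR10 hairpins were not. They are given from RefSeq, 5′ to 3′, with the seed (bases 2 to 8) in capitals.
hsa-miR-196a-5p: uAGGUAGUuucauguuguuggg
hsa-miR-196b-5p: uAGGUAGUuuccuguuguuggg
hsa-miR-615-3p: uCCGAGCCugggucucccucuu
hsa-miR-10a-5p: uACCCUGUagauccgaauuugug

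miR-196a-5p, which comes from both MIR196A1 in HOXB and MIR196A2 in HOXC, and miR-196b-5p, from MIR196B in HOXA, share 1 seed and differ by A12C (miR-196a-5p first, positions counted from 1 at the 5′ end). The seeds of miR-615-3p and miR-10a-5p are each different from it. The miR-196 family is known to target HOX transcripts, and the miR-10 genes lie upstream of the HOX4 genes.

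The first comparison asked how much of each cluster lay under H3K27me3 in the 2 arms. HOXA and HOXC were the most completely covered in both, and HOXD was the cluster whose H3K27me3 differed most between the arms. In DMSO, H3K27me3 covered 100% of HOXA, 86.7% of HOXB, 100% of HOXC and 99.2% of HOXD. In CPI-0209 it covered 93.8%, 61.2%, 94.7% and 66.8%, and over the 4 clusters together 76.4% against 94.8%. The merged domain was a single piece over HOXA and over HOXC in DMSO and 4 pieces over each in CPI-0209. HOXB went from 3 pieces to 7 and HOXD from 2 to 13. Under both passes the gap between the arms was wider in each cluster. HOXA had 100% in DMSO and 59.6% in CPI-0209, HOXB 74.1% and 22.6%, HOXC 99.1% and 34%, and HOXD 85.5% and 5.8%. Nearly all the CPI-0209 coverage came from the first pass of that list, which alone covered 92.9%, 60.8%, 94.5% and 66.2% of the 4 clusters. The second pass, the smaller one, covered 60.5%, 23%, 34.1% and 6.38%.

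EZH2 under either pass differed less between the arms than H3K27me3 in each cluster. It covered 100% of HOXA in both arms, 68% of HOXB in DMSO and 74.4% in CPI-0209, 100% and 99.1% of HOXC, and 89% and 92.5% of HOXD. The stretches under both EZH2 passes made up more of each cluster in CPI-0209: 94.8% and 99.3% in HOXA, 40.8% and 64.5% in HOXB, 75.7% and 94.9% in HOXC, and 43.6% and 76.5% in HOXD. The EZH2 CPI-0209 list is also the larger one over the whole genome, and how much of the higher figure in the clusters goes with that was not tested.

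**Figure D1:**
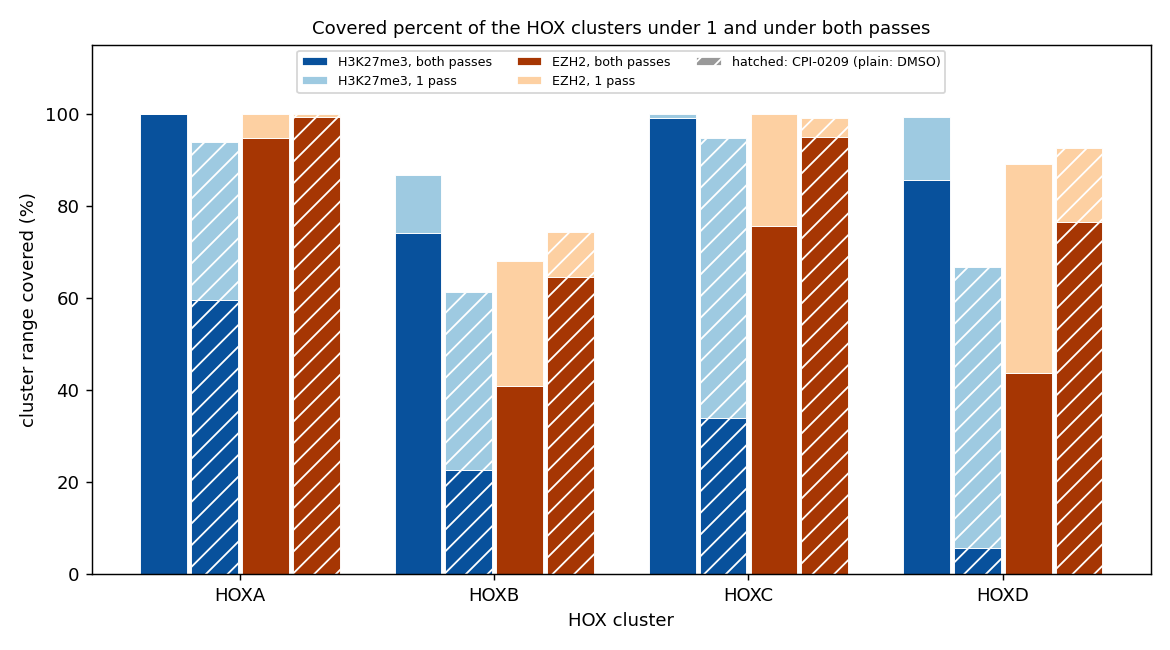
Percent of each cluster range (y axis) under called intervals, for H3K27me3 (blue) and EZH2 (orange), with plain bars for DMSO and hatched bars for CPI-0209. The dark part of a bar is the length under both passes of the list and the light part the length under 1 pass; each bar is 1 library and has no error. In H3K27me3 CPI-0209 the dark part is 59.6% of HOXA and 5.8% of HOXD.

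**Figure D2:**
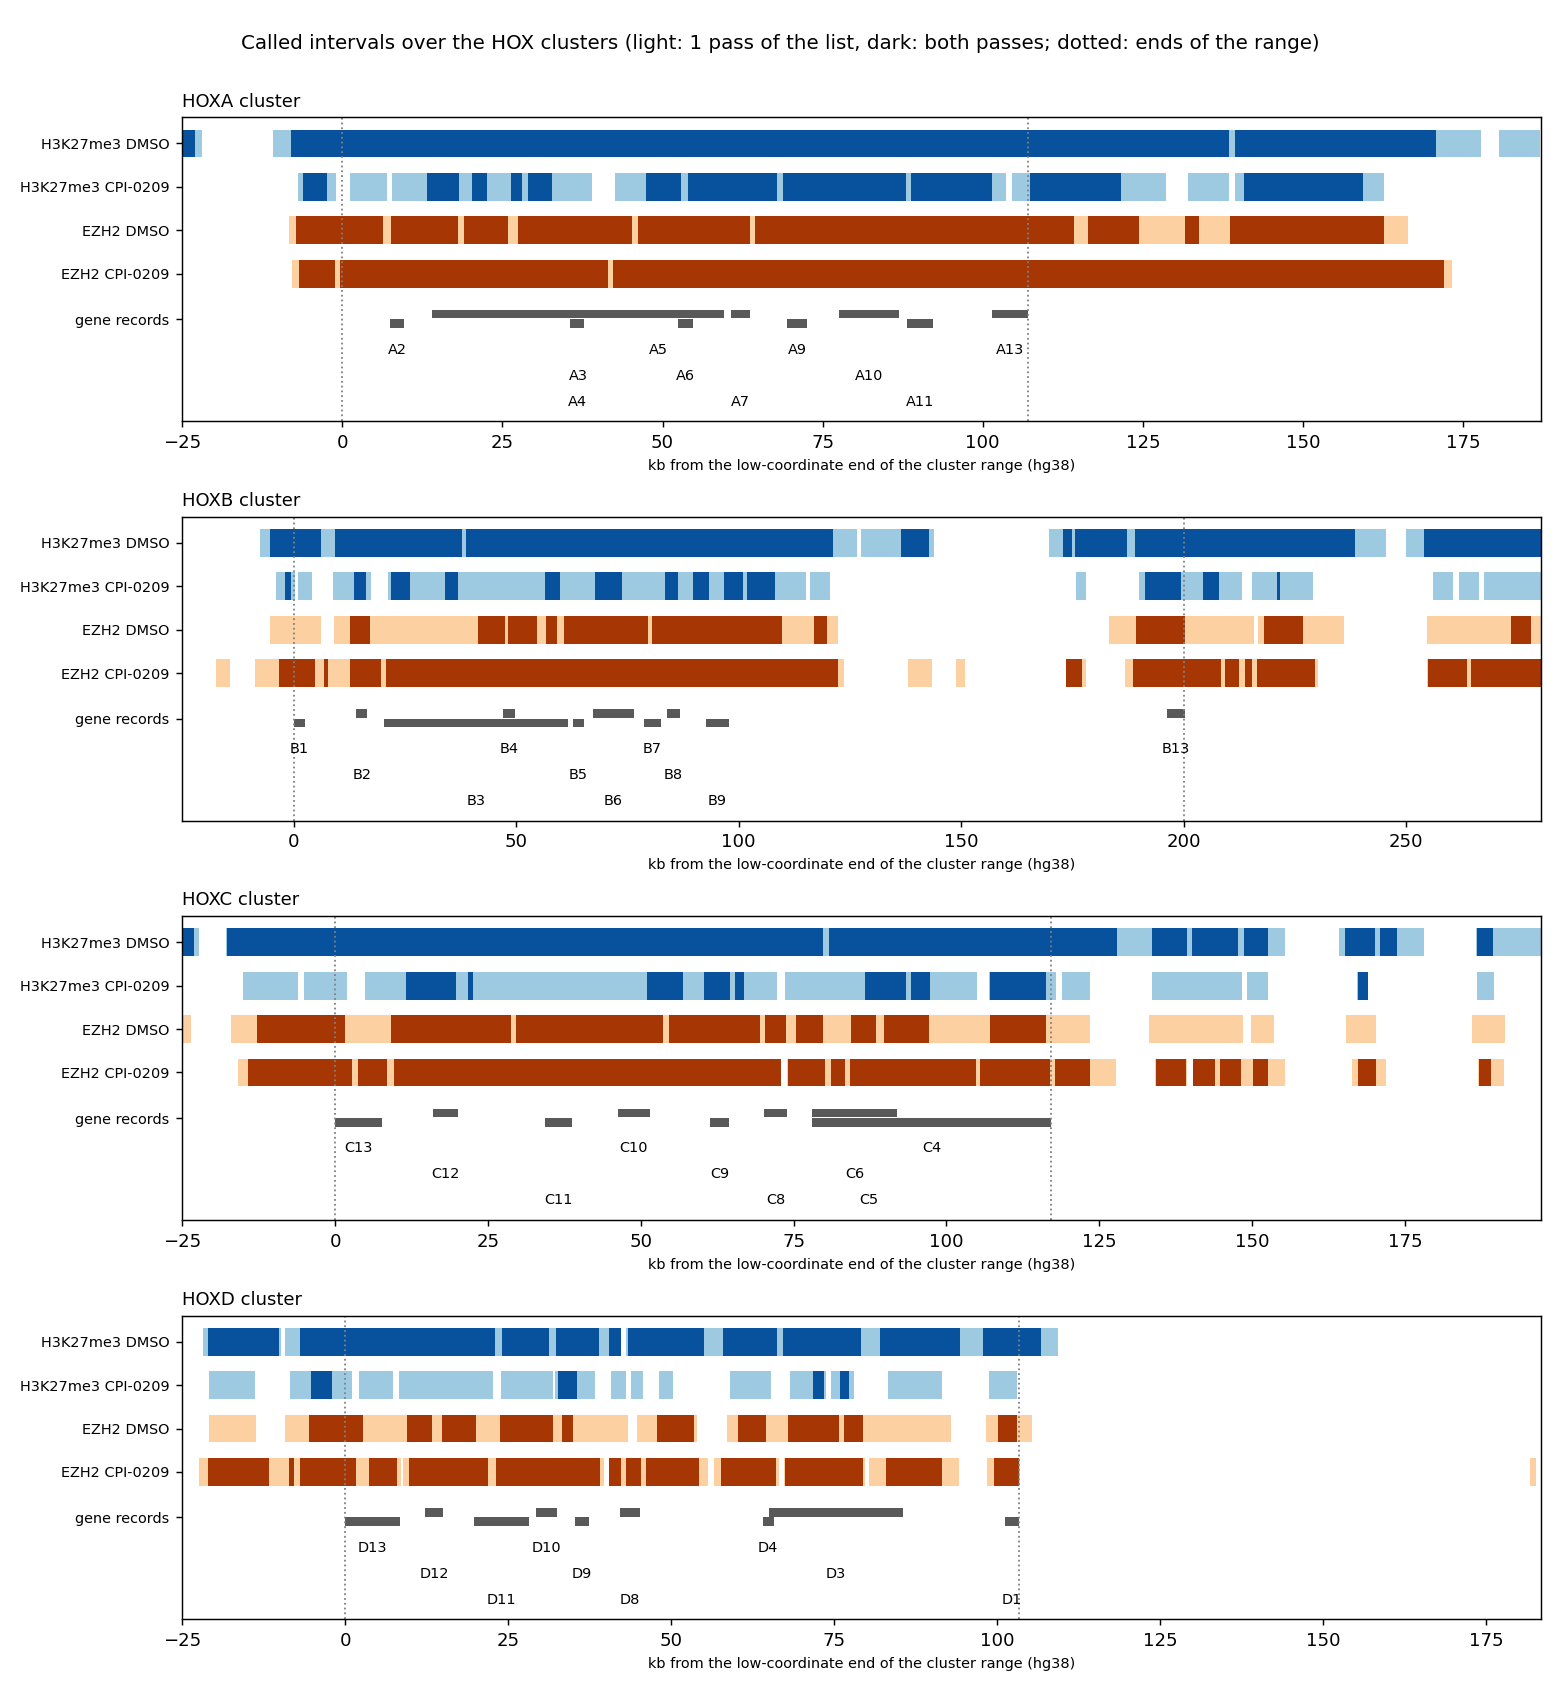
Intervals along each cluster and its surroundings, in kb from the low-coordinate end of the range (x axis; dotted lines mark both ends), for the 4 lists, with the gene records below. Dark blocks lie under both passes and light blocks under 1; HOXA and HOXC are closed in DMSO H3K27me3, and the white gaps of the CPI-0209 row are densest in HOXD, with 13 breaks.

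Gene by gene, a record was called covered end to end when every base pair of it lay under an interval. In DMSO H3K27me3 this held for 37 of the 38 HOX genes, where 7.49% of all protein-coding records were so covered, and in CPI-0209 for 23 of 38 (2.77% of all records). HOX records are short, with a median of 3.79 kb against 24.2 kb over all protein-coding records, and short records are covered end to end more often. Among records of up to 10 kb, 31 of 32 HOX genes and 17% of all records were covered in DMSO, and 21 of 32 and 7.61% in CPI-0209. Of the 37 genes covered in DMSO, 23 (62.2%) were still covered end to end in CPI-0209, against 36.1% of all records covered in DMSO. With records of up to 10 kb these figures were 21 of 31 (67.7%) and 43.5%. Under both passes the counts were 30 of 38 in DMSO (4.32% of all records) and 5 of 38 in CPI-0209 (0.335%). Read alone, the first pass covered 30 HOX records end to end in DMSO (4.51%) and 23 in CPI-0209 (2.73%). The second pass covered 37 (7.19%) and 5 (0.345%). Both CPI-0209 counts thus lay below both DMSO counts, but the size of the difference depends on how the passes are paired, which is unknown. No HOX record was free of H3K27me3 in either list, and the lowest value in CPI-0209 was 56.2%, at HOXD3. Records that overlap each other share base pairs and are not independent: HOXA3 with HOXA4, HOXA5 and HOXA6, HOXB3 with HOXB4, HOXC4 with HOXC5 and HOXC6, and HOXD3 with HOXD4.

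In HOXA, 7 of the 10 genes were covered end to end in CPI-0209, and all 10 were in DMSO. HOXA2, which patterns the hindbrain and the skeleton of the pharyngeal arches, was covered by H3K27me3 over 100% of its record in DMSO and 80.8% in CPI-0209, with 0 under both CPI-0209 passes and EZH2 over 100% in both arms. HOXA3, needed for the thymus and parathyroid, went from 100% to 92.1% through a single break of 3.6 kb (27132001 to 27135600) that lies inside its record between HOXA4 and HOXA5. That break was under both passes of H3K27me3 and of EZH2 in DMSO along its whole length, and it was the widest in the cluster. HOXA13, which shapes the distal limb and the genitourinary tract, had 100% in DMSO and 82.5% in CPI-0209, and 0.646% of it lay under both CPI-0209 passes.

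The middle of the cluster was the most completely marked stretch of all 4. HOXA5, HOXA7, HOXA9 and HOXA10 had 100% of their records under both passes of H3K27me3 in DMSO and in CPI-0209, and under both EZH2 passes in CPI-0209. HOXA9 is a driver of blood cell leukaemias and HOXA10 a factor of the uterus. They lie together in the widest both-pass stretch of CPI-0209, 19.2 kb long (27161801 to 27181000), with 100% of it under both EZH2 passes in each arm. The neighbouring stretches were 13.8 kb over HOXA7 and part of HOXA6, and 12.6 kb from inside HOXA11 to the edge of HOXA13. HOXA11, a kidney and forelimb factor, had 84.2% of its record under both CPI-0209 passes, and HOXA6 had 49.6%. HOXA4 was covered end to end in CPI-0209, but by 1 pass only, with 0 under both.

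In HOXB, 8 of 10 genes were covered end to end by H3K27me3 in CPI-0209. HOXB1, which specifies the hindbrain segment of the facial nerve, was covered over 100% in DMSO and 67.8% in CPI-0209. It was also a gene at which the 2 EZH2 passes parted, with 0 under the first pass and 100% under the second in DMSO, and 100% under each in CPI-0209. HOXB3 had an uncovered 931 bp at its low end (97.7% covered) as part of a 3.8 kb break between HOXB2 and HOXB3. Its both-pass share was 98.1% in DMSO and 25.6% in CPI-0209. No HOXB gene had its whole record under both CPI-0209 passes. The highest was HOXB8 with 90.1%, followed by HOXB2 with 87.4% and HOXB13 with 81.2%, and HOXB6 had 67.1% and HOXB9 34.7%. HOXB4, a gene of blood stem cells, and HOXB5 and HOXB7 had 100% of their records under the first CPI-0209 pass and 0 under both passes. HOXB13, the prostate and hindgut member, stands apart from the others beyond a spacer of 98.4 kb.

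That spacer, with no HOX gene in it, held most of the uncovered length of HOXB. H3K27me3 covered 73% of it in DMSO and 30.7% in CPI-0209, with breaks of 55.4 kb and 11.8 kb in CPI-0209 and 25.8 kb in DMSO. EZH2 covered 38% and 48%. From HOXB1 to HOXB9 alone, H3K27me3 covered 100% in DMSO and 90.4% in CPI-0209, and under both passes 95.9% and 28%. EZH2 covered 96.9% and 100% of the same stretch. HOXC, which has no such spacer, had 94.7% under either pass and 34% under both in CPI-0209.

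In HOXC, 6 of 9 genes were covered end to end in CPI-0209. HOXC13, a regulator of hair and nail keratins, was covered over 100% in DMSO and 61.1% in CPI-0209, the lowest value of the cluster, through a break of 3 kb wholly inside its record. EZH2 covered all of HOXC13 in both arms, although only 20.4% lay under both EZH2 passes in DMSO, against 87% in CPI-0209. HOXC8, a thoracic patterning gene, had 100% and 68.3%. It was the HOX gene with the least EZH2 in CPI-0209, at 74.4% against 100% in DMSO, and its EZH2 break (54011801 to 54012800) overlapped its H3K27me3 break (54011201 to 54012400). HOXC4 had 94.9% in CPI-0209 through a break of 2 kb beyond the end of HOXC5. HOXC9 was the single gene outside HOXA with 100% under both CPI-0209 passes, and HOXC12 followed with 91.2%. HOXC11 was covered end to end by the first pass and had 0 under both passes, and HOXC10 had 9.33%. HOXC4 and HOXC5 each had 48.5% and HOXC6 37.5%, and these 3 records overlap.

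In HOXD, 2 of 9 genes, HOXD9 and HOXD12, were covered end to end in CPI-0209, against 8 of 9 in DMSO. Many members of this cluster pattern the limbs and the urogenital tract, HOXD13 chiefly the digits. H3K27me3 in CPI-0209 covered 76.4% of HOXD13, 85.7% of HOXD11, 93.7% of HOXD10, 73.3% of HOXD8, 74.6% of HOXD4, 56.2% of HOXD3 and 86.3% of HOXD1. All of these except HOXD8 were at 100% in DMSO. Only 2 HOXD genes had any length under both CPI-0209 passes, HOXD3 with 15.6% and HOXD9 with 12.7%, and the other 7 had 0. EZH2 in CPI-0209 covered 8 of the 9 records end to end, all but HOXD3 (93.2%).

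HOXD3, a gene of the upper neck vertebrae, had the longest uncovered length of any HOX record in CPI-0209, 9000 bp in 3 breaks of 3 kb, 0.8 kb and 5.2 kb. The widest breaks of the cluster lay between genes, 8.8 kb between HOXD8 and HOXD4 and 7.2 kb between HOXD3 and HOXD1. HOXD8 was the exception in DMSO, covered over 73.3% by H3K27me3 and 53.2% by EZH2, and it was at 73.3% in CPI-0209 as well. The equal figures hide different stretches. The DMSO break ran from 176129801 to 176130600 and the CPI-0209 break from 176130601 to 176131400, side by side and each 0.8 kb wide. The DMSO break was covered by the first H3K27me3 pass of CPI-0209. HOXD8 was covered over 100% by EZH2 in CPI-0209, and its EZH2 gap in DMSO was 1.4 kb wide.

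**Figure D3:**
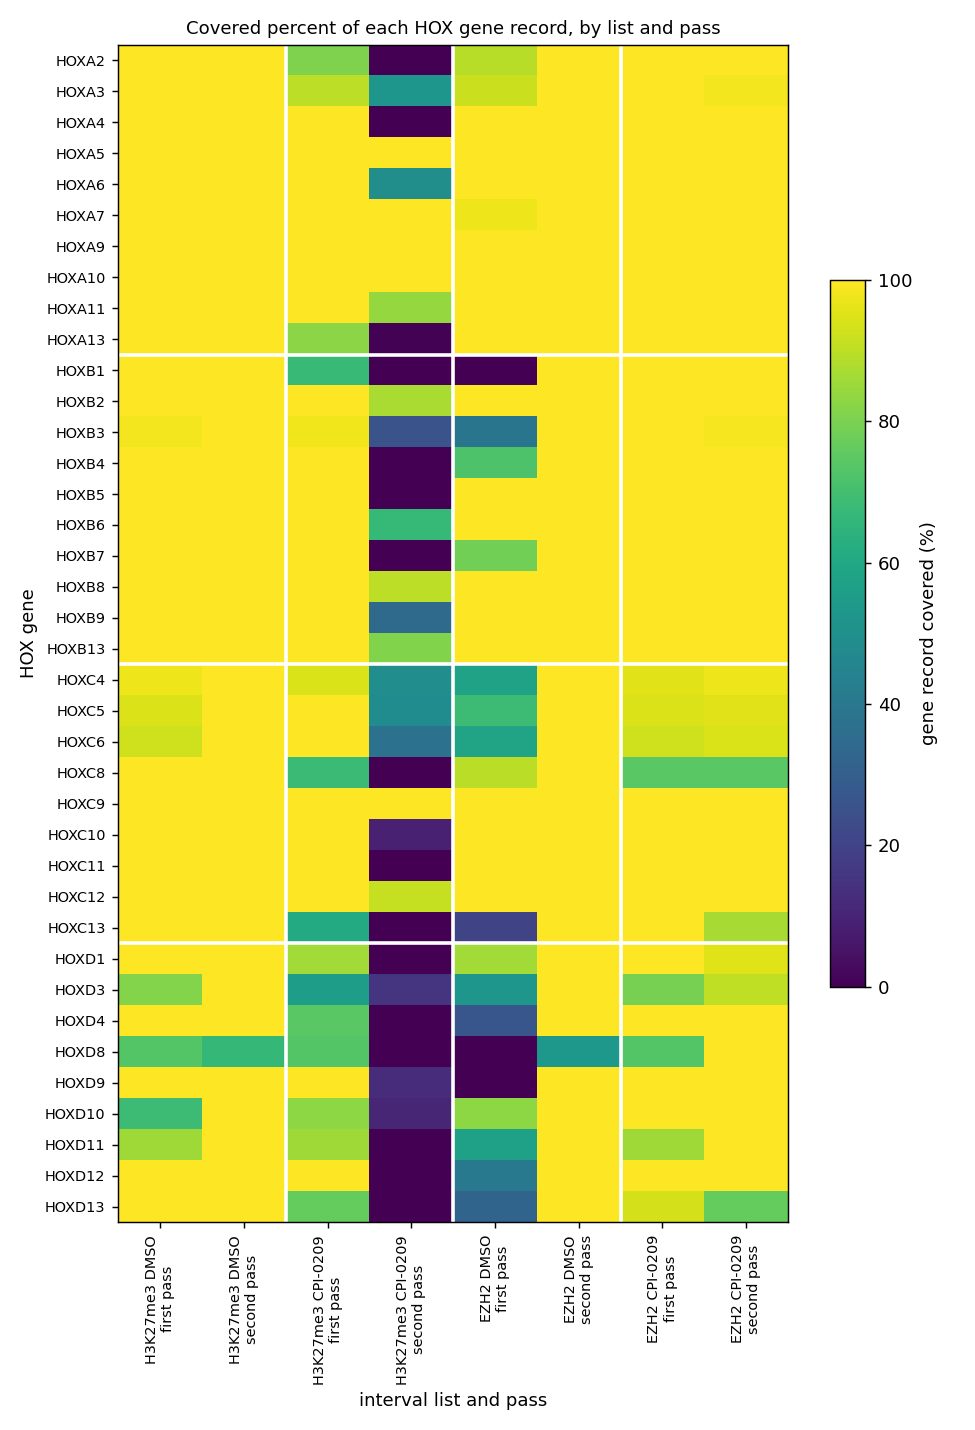
Covered percent of each of the 38 HOX gene records (rows, by cluster; colour scale from 0 to 100%) under each pass of each list (columns, 1 library per pair of columns). The second pass of H3K27me3 CPI-0209 is the darkest column, with 15 records at 0 and 5 at 100%; in EZH2 DMSO the first pass holds the low values.

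By position in the clusters, 1 of 7 anterior genes (numbers 1 to 3), 11 of 15 central genes (4 to 8) and 11 of 16 posterior genes (9 to 13) were covered end to end by H3K27me3 in CPI-0209. The median covered share was 86.3% for the anterior genes and 100% for both other groups. HOXB2 was the anterior gene covered end to end. The anterior group holds 3 records longer than 10 kb (HOXA3, HOXB3 and HOXD3), and the part of record length in this difference was not tested. Under both passes the order was not the same, with medians of 15.6% (anterior), 37.5% (central) and 11% (posterior). The clusters differed more than the positions did in that measure: the median was 67.3% in HOXA, 30.2% in HOXB, 37.5% in HOXC and 0 in HOXD.

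EZH2 covered 37 of the 38 HOX records end to end in DMSO (7.95% of all protein-coding records) and 36 in CPI-0209 (9.51%). The DMSO exception was HOXD8, and the CPI-0209 exceptions were HOXC8 and HOXD3. Of the 37 covered in DMSO, 35 were also covered in CPI-0209 (94.6%, against 80% of all records covered in DMSO). With records of up to 10 kb these figures were 30 of 31 (96.8%) and 80.1%, where 31 of 32 HOX records were covered in each arm (21.5% and 26.1% of all short records). Under both passes the number was 17 in DMSO (2.23%) and 26 in CPI-0209 (3.84%). By the first pass alone it was 17 (3.47%) and 30 (4.57%), and by the second pass alone 37 (6.6%) and 28 (8.4%). HOXB1, HOXD8 and HOXD9 were at 0 under both EZH2 passes in DMSO and at 100%, 73.3% and 100% in CPI-0209. With passes paired by file order, the number of HOX genes covered end to end by EZH2 lay lower in CPI-0209 under either pass and by the second. It lay higher under both passes and by the first.

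The starts of the genes were looked at on their own, since CG-rich promoters are known places of Polycomb binding. A gene counted as marked only when all its listed starts were, or both record ends where no start was listed. Both ends may be harder to meet for long records, and HOX records are short. No share over short records was taken for starts, and the part of record length was not tested. An interval lay within 2 kb of the start of 38 of 38 HOX genes in all 4 lists, where the share of all protein-coding genes was 22.3% for H3K27me3 in DMSO, 15% for H3K27me3 in CPI-0209, 41.8% for EZH2 in DMSO and 58% for EZH2 in CPI-0209. Of all genes so marked in DMSO, 65.7% were still marked in CPI-0209 for H3K27me3 and 94% for EZH2. Under both passes, H3K27me3 was at 38 starts in DMSO (17.5% of all genes) and 17 in CPI-0209 (2.83%), and EZH2 was at 33 (16.6%) and 38 (26.2%). Of all genes under both passes in DMSO, 16.1% were so in CPI-0209 for H3K27me3, beside 17 of 38 HOX genes, and 76.2% for EZH2, beside 33 of 33. The RefSeq promoter table gives 27 exact starts of 20 HOX genes, 7 of them of HOXA3, and HOXC4 and HOXC5 have the same position. None of the 27 was uncovered in any list. Over all 22132 start positions the covered share was 21% and 15.2% for H3K27me3 in DMSO and CPI-0209, and 48.1% and 65.4% for EZH2. Of all start positions covered in DMSO, 69.9% were still covered in CPI-0209 for H3K27me3 and 94% for EZH2, against 27 of 27 HOX starts for each. In DMSO all 27 lay under both H3K27me3 passes (16.2% of all starts). In CPI-0209 12 lay under both (2.36%), all in HOXA, and 15 under 1, and over all starts that were under both passes in DMSO 14.4% were so in CPI-0209.

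The 12 starts under both CPI-0209 passes belong to HOXA3 (6 of its 7), HOXA6, HOXA7, HOXA9, HOXA10 (2) and HOXA11. The HOXA starts under 1 pass were those of HOXA2, HOXA4 and HOXA13 and the seventh start of HOXA3. Outside HOXA, the listed starts of HOXB1, HOXC4, HOXC5 and all 8 HOXD genes in the table were under 1 pass. The table covers few HOXB and HOXC genes, so this split says little about those clusters. EZH2 lay at 22 of the 27 starts under both passes in DMSO (20% of all starts) and at 27 of 27 in CPI-0209 (30.1%), and of the starts at this level in DMSO 22 of 22 were so in CPI-0209 (75.9%). The 5 starts under 1 EZH2 pass in DMSO were those of HOXA7, HOXB1, HOXD8 and HOXD13 and 1 start of HOXA3.

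The breaks, meaning uncovered stretches inside a cluster range, numbered 3 in DMSO H3K27me3 (27.4 kb in all) and 26 in CPI-0209 (124.7 kb). Of the 26, 4 were in HOXA, 6 in HOXB, 3 in HOXC and 13 in HOXD, and 16 were wider than 1 kb. EZH2 breaks numbered 5 in DMSO (75.4 kb) and 11 in CPI-0209 (60 kb), with 2 and 4 in HOXB, 0 and 1 in HOXC and 3 and 6 in HOXD, so EZH2 had more breaks but less uncovered length in CPI-0209. None of the 26 H3K27me3 breaks held a listed start, and the nearest was 0.896 kb from one, at HOXD8. HOX records were touched by 17 of the 26. In DMSO, 25 of the 26 were covered by H3K27me3 along their whole length, 15 of them by both passes. The exception was the 55.4 kb break in the HOXB spacer, of which 52% was covered. EZH2 covered 20 of the 26 along their whole length in DMSO and 18 in CPI-0209, and none was free of EZH2 in either arm. For the 7 breaks of HOXA and HOXC the DMSO results under either pass were fixed, since both DMSO lists cover 100% of these clusters. For H3K27me3 this also held for the 3 breaks from HOXB1 to HOXB9, a stretch covered to 100% in DMSO. It nearly held for the 13 of HOXD, covered to 99.2%. Only for the 3 breaks of the HOXB spacer, covered to 73%, was the whole-length H3K27me3 result neither fixed nor nearly so. Over the 4 clusters H3K27me3 covered 94.8% in DMSO (87.2% under both passes), and EZH2 85.7% in DMSO and 88.6% in CPI-0209. A hole is a stretch that the pass in question does not cover. In HOXD 7 of 13 and in HOXB 3 of 6 overlapped a hole in the first pass of DMSO H3K27me3, and in HOXA and HOXC none of 7 did. That pass covers 85.7% of HOXD and 74.6% of HOXB. It covers 100% of HOXA and 99.1% of HOXC, so few or no holes were there to meet. For the first pass of DMSO EZH2, 20 of the 26 overlapped a hole. That EZH2 pass covers 60.1% of the 4 clusters, 40.8% of HOXB and 43.6% of HOXD, so holes were common there. Whether the breaks met holes more often than other stretches of the clusters was not tested.

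Stretches under both H3K27me3 passes in CPI-0209 numbered 29, of which 8 were in HOXA, 10 in HOXB, 8 in HOXC and 3 in HOXD. Each of the 29 lay along its whole length under both EZH2 passes of CPI-0209 and under both H3K27me3 passes of DMSO. These 2 readings cover 99.3% and 100% of HOXA and 94.9% and 99.1% of HOXC, so the outcome there was fixed or nearly so. They cover 64.5% and 74.1% of HOXB, 76.5% and 85.5% of HOXD, and 80.7% and 87.2% of the 4 clusters together. In HOXD the stretches under both H3K27me3 passes in CPI-0209 were 2.8 kb at HOXD9 and 1.8 kb and 1.4 kb inside HOXD3. In HOXC the widest was 9.2 kb in HOXC4, and in HOXB 8.2 kb at HOXB13.

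The relation of H3K27me3 to EZH2 was also taken by length. Of the H3K27me3 length of DMSO in the 4 clusters, 402.4 kb (80.4%) was also covered in CPI-0209 and 98.1 kb was not, against 35.8% over the genome. EZH2 of DMSO covered 99.2% of the length still covered and 53.5% of the length no longer covered, and over the genome 84.9% and 21.7%. For EZH2 of CPI-0209 the cluster values were 99.8% and 64.7%, and the genome values 92.6% and 30.5%. Most of the length without EZH2 was in HOXB, where EZH2 of DMSO covered 31.4% of the 51 kb no longer covered. Of these 51 kb, 9.4 kb lay from HOXB1 to HOXB9 and the rest in the spacer without HOX genes. The breaks from HOXB1 to HOXB9, of 0.8, 4.8 and 3.8 kb, were 100%, 41.7% and 100% under EZH2 of DMSO. Those of the spacer, of 1, 55.4 and 11.8 kb, were 100%, 3.25% and 55.9% under it. In HOXA and HOXC EZH2 of DMSO covered 100% of the 6.61 kb and 6.2 kb no longer covered, and in HOXD 69.1% of 34.3 kb. In HOXA and HOXC that figure was fixed, since the DMSO EZH2 list covers 100% of both clusters. Under both EZH2 passes of DMSO, which cover 75.7% of HOXC, the breaks in HOXC13 and HOXC4 had 0% and the break in HOXC8 had 100%.

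The domains were followed outwards past the 8 cluster ends, to the first uncovered base. Summed over the ends, the H3K27me3 reach beyond the clusters was 205.5 kb (DMSO) and 51.1 kb (CPI-0209), and that of EZH2 123.3 kb and 161.7 kb. The longest reach was on the high side of HOXA, where DMSO H3K27me3 ran 70.7 kb past the cluster and over EVX1, a homeobox gene next to HOXA. In CPI-0209 it stopped at 21.5 kb, short of EVX1, and EZH2 ran over EVX1 in both arms, to 59.3 kb and 66.1 kb. On the low side of HOXA the distance was 10.8 kb with DMSO but −1.21 kb with CPI-0209, the minus meaning that the first interval began inside the range.

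On the high side of HOXB, past HOXB13, H3K27me3 reached 45.2 kb with DMSO, ending inside TTLL6, a tubulin glutamylase gene, and 12.8 kb with CPI-0209. EZH2 there reached 15.7 kb and 30.1 kb, but with gaps of up to 1 kb joined it reached 35.9 kb in DMSO, inside TTLL6, and still 30.1 kb in CPI-0209, so the order of the arms turned. HOXC had 17.8 kb on its low and 38.2 kb on its high side in DMSO, and 5.03 kb and 0.77 kb in CPI-0209, with no protein-coding record reached. On the low side of HOXD, where EVX2 lies, the H3K27me3 edge lay inside EVX2 in both arms, at 9.29 kb and 8.49 kb. With gaps of up to 1 kb joined the DMSO edge lay past EVX2, at 21.9 kb, and the CPI-0209 edge stayed at 8.49 kb. EZH2 as deposited ended at 9.29 kb in DMSO and ran over all of EVX2 to 22.5 kb in CPI-0209. On the high side of HOXD, past HOXD1, H3K27me3 reached 5.89 kb with DMSO but −0.307 kb with CPI-0209. These distances depend on small gaps. With gaps of up to 5 kb joined the sums were 321.1 kb and 124.9 kb for H3K27me3, and the HOXA domain of CPI-0209 then ran 55.5 kb past the cluster and over EVX1.

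**Figure D4:**
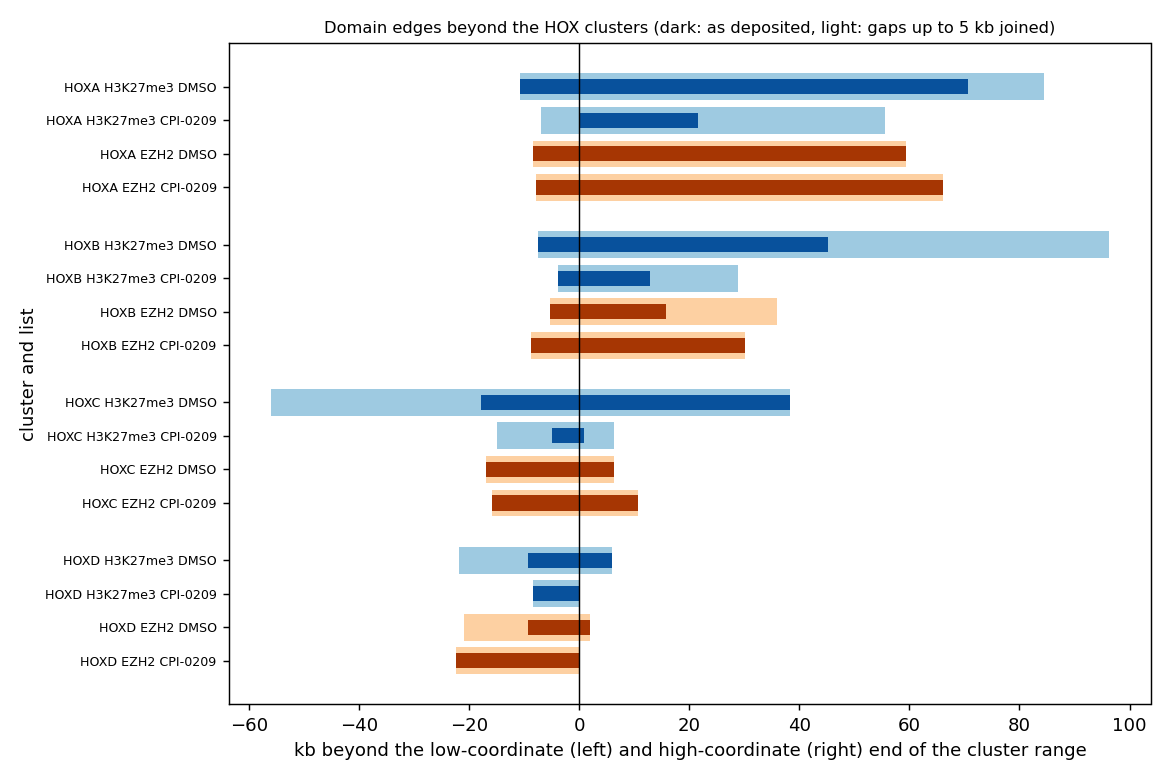
Distance in kb (x axis) that the domain at each cluster end extends beyond the range, low-coordinate end to the left of 0 and high-coordinate end to the right, for each cluster and list (y axis). Dark bars are the lists as deposited and light bars the lists with gaps of up to 5 kb joined; the DMSO H3K27me3 bar of HOXA ends at 70.7 kb and its CPI-0209 bar at 21.5 kb.

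The clusters also hold genes of noncoding RNAs. Of 16 listed noncoding and microRNA genes, 16 were covered end to end by H3K27me3 in DMSO and 13 in CPI-0209 (7.49% and 2.77% of protein-coding records). All 16 had H3K27me3 at the start in both (22.3% and 15% of protein-coding genes). No share over all noncoding genes was taken. Those not covered end to end in CPI-0209 were HAGLR, between HOXD3 and HOXD1, at 54.3%, HOTAIRM1, at the low end of HOXA, at 93.8%, and HOXB-AS1 at 44.9%. HOTTIP, transcribed outwards from the high end of HOXA, and HOXA11-AS lay wholly under both CPI-0209 passes. HOXA-AS3 had 92.1%, HOXA-AS2 55.5%, HOXB-AS3 38.8% and HOXB-AS1 18.7% there. HOTAIR, a long RNA from HOXC known for its reported binding to Polycomb repressive complex 2, was covered end to end in both arms and had 100% under both passes in DMSO and 0 in CPI-0209. HOXC13-AS likewise went from 100% to 0 under both passes.

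All 6 microRNA hairpins were under both H3K27me3 passes in DMSO and under both EZH2 passes in each arm. In CPI-0209 the hairpins of MIR196A1, MIR196A2 and MIR196B, whose 5p products share the seed shown above, and that of MIR615 were under both H3K27me3 passes. Those of MIR10A and MIR10B were under 1. The 6 hairpins are short and each takes the state of its place in a cluster, so they do not add independent values.

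Other genes of the same pathway were read from lists. Among 8 ParaHox and EVX genes, the homeobox relatives of HOX, H3K27me3 was at the start of 8 in DMSO (22.3% of all genes) and 7 in CPI-0209 (15%). Under both passes it was at 8 (17.5%) and 5 (2.83%). EVX1 and GSX1 had 100% of their records under both CPI-0209 passes, CDX2, an intestinal regulator, had 68.1% and PDX1, a pancreatic one, had 76%. EVX2 had 27.1% and CDX1 11.2%. GSX2 was covered end to end with 0 under both passes. CDX4 went from 28.9% in DMSO to 0 in CPI-0209 and was free of EZH2 in both arms. Of 9 HOX cofactor genes (PBX, MEIS and PKNOX, whose proteins bind DNA with HOX proteins) 3 had H3K27me3 at the start in DMSO (22.3% of all genes) and 2 in CPI-0209 (15%), and none under both passes in CPI-0209 (2.83%). The cofactors with the most were MEIS3, at 100% in DMSO and 95.8% in CPI-0209, and PKNOX2, at 98.4% and 69.3%. Of 12 retinoic acid genes, which make, break down or bind the signal that switches HOX genes on in embryos, 5 were marked at the start in DMSO and 3 in CPI-0209, with none under both passes in CPI-0209, beside the same shares of all genes. The 3 were the degrading enzymes CYP26A1, CYP26B1 and CYP26C1, covered over 52.7%, 28.3% and 72.5% in CPI-0209. EZH2 was at the start of 7 cofactor and 7 retinoic acid genes in CPI-0209 (58% of all genes), and of 6 and 6 in DMSO (41.8%). The counts of these lists of 9 and 12 genes were not tested against such shares.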

How the data were processed

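ChIP-seq intervals of 4 HT1376 libraries (H3K27me3 and EZH2, DMSO or CPI-0209) were used, grouped by the labels. The deposited values are genome coordinates only (chromosome, start, end), per the file headers, with no count or score. The submitters' processing notes name BWA, SICER and hg38; versions, settings and the use of the input are not given in the sources used here. Intervals lie on a 200 bp grid. Covered lengths were computed with Python 3.11.15, numpy 2.4.6 and pandas 2.3.3, as the union of both passes of a list or as their overlap, and the functions were tested on simulated data. Genes and starts came from RefSeq (GRCh38.p14). The start window was 2 kb either side. All listed starts of a gene had to be marked, and where the promoter table had no start both record ends had to be. All 38 genes are accounted for; named with values are those with an uncovered base in any list, the most and least covered per cluster, those under both CPI-0209 passes, lists of other genes, and records at domain edges. Members and lists were chosen with earlier results of these data known. Reading the passes alone, leaving out the HOXB spacer and the start position itself were added after seeing the data.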

Additional observations from a re-analysis of the deposited data

How the results depend on the processing

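With 1 library per group, values here are compared without error, the depth is unknown, and a missing call does not show a missing mark. No paired analysis was possible because each group has 1 library and the values come from no test. Of 144 alternative values, 85 were labelled as staying near the reported one, 55 as moved and 4 as changed in sign. The rule for staying near differed by kind of value, so this tally is no common measure of nearness. Coverage had to lie in a 95% binomial interval that treats 200 bp bins as independent. Counts and differences had to stay within a fixed ratio, and edge sums had to be equal. H3K27me3 covered less of the clusters in CPI-0209 than in DMSO under each alternative run.

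Cluster coverage was 94.8% (H3K27me3 DMSO), 76.4% (H3K27me3 CPI-0209), 85.7% (EZH2 DMSO) and 88.6% (EZH2 CPI-0209). Under both passes it was 87.2%, 29.3%, 60.1% and 80.7%, and without the HOXB spacer 99.8%, 86.8%, 96.6% and 98%. The first pass alone gave 87.4% (H3K27me3 DMSO), 60.1% (EZH2 DMSO) and 83.9% (EZH2 CPI-0209). The second pass alone gave 29.8% (H3K27me3 CPI-0209) and 85.4% (EZH2 CPI-0209). Joining gaps of up to 5 kb gave 83.2% in the H3K27me3 list of CPI-0209, 87.4% in EZH2 DMSO and 90.3% in EZH2 CPI-0209, and H3K27me3 DMSO cut to its widest intervals gave 91.7%. The H3K27me3 difference (CPI-0209 minus DMSO, −18.4 percentage points) was −11.5 by the first pass, −64.8 by the second, −57.9 under both and −11.9 with gaps of up to 5 kb joined. Passes are paired by file order here and below, and which passes belong together is unknown, so the size of a single-pass difference depends on that pairing. For H3K27me3 both CPI-0209 passes (75.9% and 29.8%) lay below both DMSO passes (87.4% and 94.6%). The EZH2 difference (2.9 points) was 23.8 by the first pass, −0.3 by the second, 20.6 under both and 1.4 without the spacer, so its sign rests on which passes are read.

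The 23 HOX genes covered end to end by H3K27me3 in CPI-0209 were 5 under both passes and by the second pass, and 36 with gaps of up to 5 kb joined. The 37 in EZH2 DMSO were 17 under both passes and by the first. The H3K27me3 difference in such genes (−14) was −7 by the first pass, −32 by the second, −25 under both, −9 with gaps of up to 1 kb joined and −2 with 5 kb. The EZH2 difference (−1) was 13 by the first pass, −9 by the second, 9 under both, 1 and 0 with gaps of up to 1 kb and 5 kb joined, 0 at 90% of the record and −2 with the longer list shortened. The 38 starts with H3K27me3 in CPI-0209 were 17 under both passes and by the second. The 3 DMSO breaks were 1 when wider than 1 kb and 15 by the first pass, and the 26 of CPI-0209 were 16 when wider than 1 kb. Domain edges summed to 218.1 and 321.1 kb (H3K27me3 DMSO), 66.7 and 124.9 kb (H3K27me3 CPI-0209) and 143.5 and 155.1 kb (EZH2 DMSO) with gaps of up to 1 and 5 kb joined. Under both passes, marked starts were 0 of 9 cofactors and 0 of 12 retinoic acid genes for H3K27me3 CPI-0209, 2 and 3 for EZH2 DMSO, and 2 and 4 for EZH2 CPI-0209. The cause of these shifts was not tested.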
